A study of Mus musculus with 12 samples.

Results

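A set of 7 genes from different protein families stood much higher in the liver of pregnant mice than in that of virgin mice: Cacna1h, Crybb3, Slc41a2, Dnajc12, Nptx1, Ripor2 and Ndrg1. They were chosen by their measured liver values, as genes with a large rise in pregnancy outside the usual liver pathways, so that rise is given here as a description, without a test. The array carried 16 probe sets whose platform annotation named one of these 7 genes and no other, out of 45037 probe sets other than controls and 18193 genes. Slc41a2, Crybb3 and Dnajc12 had 1 probe set each, Cacna1h and Nptx1 had 2, Ripor2 had 4 and Ndrg1 had 5. A probe set is a group of short probes against 1 transcript region, and its value is a log2 expression level, so a difference of 1 is a doubling.

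The samples came from female mice of the NOD/SCID strain, which has no mature T and B cells. In the labels the mice were 8 to 10 weeks old when experiments began, and they were either virgin or at day 16 of pregnancy. Lung and liver were taken in both states, which makes 4 groups. For each group 3 arrays were hybridised, each with pooled RNA of 2 mice, and the labels name no drug or other agent. The number of arrays limits the precision, and p-values measure the spread between pools.

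The 7 proteins do unrelated work. Cacna1h encodes the pore of a T-type calcium channel, which opens near the resting voltage of a cell and is best known in neurons, adrenal cortex and smooth muscle. Slc41a2 belongs to a family of magnesium carriers, and Dnajc12 encodes a co-chaperone that helps fold the aromatic amino acid hydroxylases, among them the liver enzyme that degrades phenylalanine. Crybb3 encodes a beta-crystallin of the eye lens, Nptx1 a secreted pentraxin that gathers glutamate receptors at synapses, and Ripor2 a regulator of cell shape and movement that acts in muscle, T cells and hair cells of the ear. Ndrg1 encodes a stress-responsive cytoplasmic protein that is induced by low oxygen and is needed by Schwann cells for myelin.

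The genes lie on different chromosomes except Slc41a2 and Dnajc12. In the GRCm38.p6 annotation of RefSeq, Cacna1h spans 25374285 to 25436334 on chromosome 17, Crybb3 113075839 to 113082236 on chromosome 5, and Nptx1 119538719 to 119547820 on chromosome 11. Dnajc12 spans 63382443 to 63408840 and Slc41a2 83230848 to 83338037, both on chromosome 10. Ripor2 spans 24501524 to 24733806 on chromosome 13, and Ndrg1 66929318 to 66969641 on chromosome 15.

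The RefSeq promoter table held windows for 3 of the 7 genes, 1 each for Crybb3 and Slc41a2 and 3 for Ripor2. The 250 bases before the annotated start of Crybb3 and Slc41a2 are shown because each of these genes has 1 window in the table and 1 probe set. Both windows overlap the gene spans given above, so the annotation holds a start further out for each gene, and which start the liver used was not examined. Capitals mark matches, on either strand, to the letters searched. TTCNNNGAA is bound by STAT factors, and ACGTG is the core bound by hypoxia-inducible factors. TGTTCT is bound by the glucocorticoid receptor and GGTCA by oestrogen and other nuclear receptors. The last motifs were the E-box CACGTG, which contains the hypoxia core, and the TATA box, TATAAA. These motifs were chosen after the values were seen. Both windows lie on the minus strand of GRCm38.p6, written 5′ to 3′, that of Crybb3 at chr5:113081585-113081834 and that of Slc41a2 at chr10:83337818-83338067.
Crybb3: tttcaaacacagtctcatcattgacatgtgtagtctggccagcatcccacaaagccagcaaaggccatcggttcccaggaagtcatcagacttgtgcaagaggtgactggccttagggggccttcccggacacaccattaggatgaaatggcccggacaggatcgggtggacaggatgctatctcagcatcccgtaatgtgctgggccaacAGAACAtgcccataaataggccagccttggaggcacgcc
Slc41a2: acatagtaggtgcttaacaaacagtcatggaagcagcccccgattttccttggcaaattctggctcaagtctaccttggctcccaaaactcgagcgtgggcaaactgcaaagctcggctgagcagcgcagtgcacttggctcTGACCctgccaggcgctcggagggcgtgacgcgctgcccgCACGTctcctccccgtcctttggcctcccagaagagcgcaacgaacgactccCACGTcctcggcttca

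The window of Crybb3 held 1 match, to TGTTCT, and that of Slc41a2 held 2 matches to ACGTG and 1 to GGTCA. Of the 3 Ripor2 windows, 1 held 2 matches to ACGTG, 1 held 1 and 1 held none of the motifs. No window of these 3 genes held TTCNNNGAA, CACGTG or TATAAA. Among all 32851 windows of this length, 16.6% held ACGTG, 16.1% TGTTCT, 35.2% GGTCA, 7.02% TTCNNNGAA, 6.02% CACGTG and 12.4% TATAAA. A match is a description of these letters only.

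The labelled tissues carried their own transcripts. All 10 hepatocyte markers measured were above the median of all values (4.53) in liver, with pool means of 13.55 to 13.63, and the 10 lung epithelium markers had pool means of 12.37 to 12.46 in lung. Correlations between pools of 1 group were 0.992 to 0.996. The poly-A spike-in, a set of transcripts added to the RNA ahead of labelling, had probe set means of 11.84 to 12.34 on 10 arrays, but of 4.95 on virgin liver pool 3 and 5.33 on pregnant liver pool 3. Liver changes are therefore also given within pools 1 and 2 and within pool 3. The hybridisation controls had a mean of 9.93 ± 0.174 on the arrays of pregnant liver and 9.61 ± 0.0588 on those of virgin liver (SD, n = 3). An exact two-sided permutation test gave p = 0.1, below which 3 against 3 cannot go, and 0.4 after Benjamini-Hochberg adjustment over 6 tests. Their part in the results was not tested.

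Over all 16 probe sets the liver differences ran from -0.15 to 4.13, with a median of 2.38, and 12 were at least 1 on the log2 scale. Over the whole array 0.75% of probe sets rose by at least 1. All pregnant liver pools lay above all virgin ones for 15 of the 16, as for 10.8% of all probe sets, and 22.6% of all did not overlap in either direction. By limma 8.16% of all probe sets were called in liver, a test not applied to the 16. These counts restate the choice of the genes and carry no further weight. Taking for each gene the probe set with the highest mean over the 12 arrays, 6 of the 7 were among the 12 largest rises of all genes. Ndrg1 ranked 21, between Cela3b (log2 difference 2.73, a pancreatic elastase gene) and Neb (2.55, a gene of a giant muscle protein), which were not chosen. The non-members with the largest rises were A2m (6.62), Slc16a6 (4.30), Slc37a1 (4.04), Egr1 (3.62) and Pnliprp1 (3.42).

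**Figure D1:**
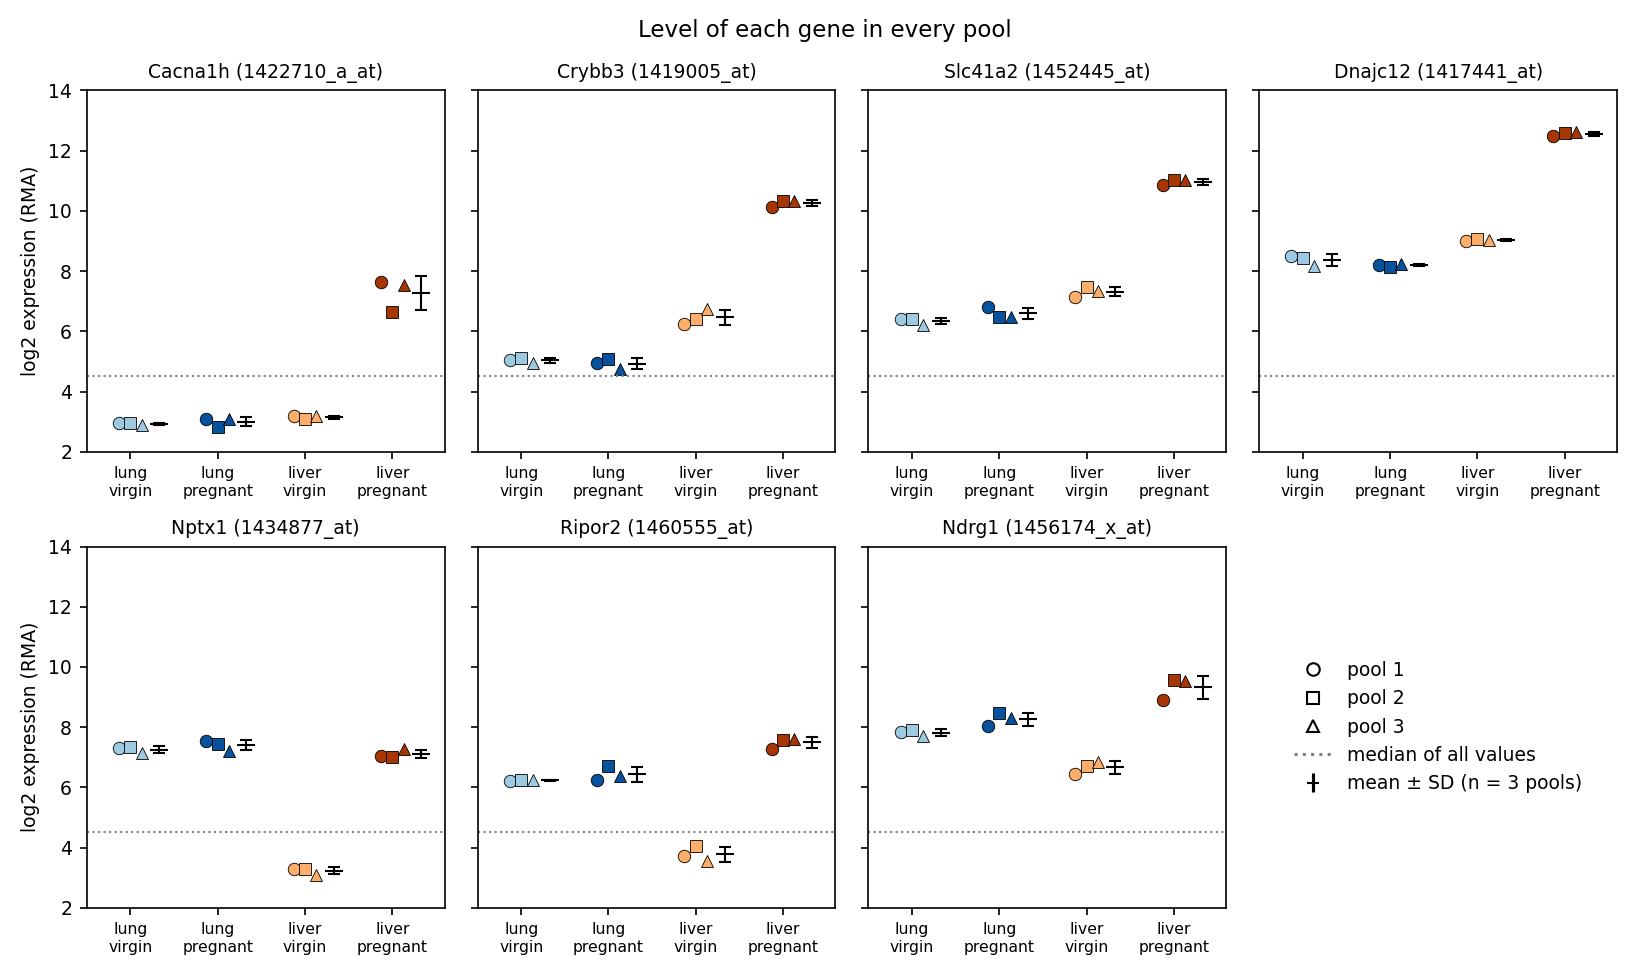
Log2 expression (vertical axis) of the 7 genes in every pool of the 4 groups, each at its probe set with the highest mean. Symbols are pools, bars are mean ± SD (n = 3) and the dotted line is the median of all values; every pregnant liver pool lies above every virgin liver pool, while the lung groups lie close together.

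Cacna1h, the calcium channel gene, was near the bottom of the scale everywhere but in pregnant liver. Its probe set 1422710_a_at read 3.17, 3.09 and 3.18 in the virgin liver pools and 7.65, 6.63 and 7.54 in the pregnant ones. The lung pools read 2.94, 2.95 and 2.88 in virgin and 3.08, 2.82 and 3.09 in pregnant mice. The 9 arrays outside pregnant liver thus lay below 4.53, where a signal above background is not shown, and the pregnant liver pools lay far above, with pool 2 about 1 log2 unit under the others. The liver difference was 4.13 ± 0.19 (SE), or 17.5-fold, and since the virgin level may be background the true ratio cannot be read from it. Pools 1 and 2 gave 4.01 and pool 3 gave 4.36.

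The other Cacna1h probe set, 1427607_at, moved much less. It read 3.58, 3.06 and 3.29 in virgin and 4.22, 4.03 and 4.48 in pregnant liver, a difference of 0.93. All 12 of its values lay below 4.53, although the liver groups did not overlap. In bulk tissue a change in the number of cells of a type and a change in RNA per cell cannot be told apart, here and for all genes below.

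No other voltage-gated calcium channel gene passed the test as higher in pregnant liver. Of 23 measured subunits 0 rose, 1 fell and 22 did not pass (limma, adjusted p under 0.05 over all genes), with a median of 0.12 against -0.01 over all 18193 genes. Over all genes 13.6% were called in liver, 6.02% as higher and 7.62% as lower. Cacna2d1, an auxiliary subunit that brings channels to the membrane, fell by 0.45 on the log2 scale (SE 0.09, n = 3, limma adjusted p = 0.00462), from 3.92, 3.97 and 3.93 to 3.52, 3.56 and 3.39. These levels are below 4.53, its 4 other probe sets changed by -0.13 to 0.09, and with the mean of its probe sets the call was lost (adjusted p = 0.395). Cacna1g, the T-type channel gene closest in kind and named here after its values were seen, had a difference of 0.29 that did not pass (adjusted p = 0.159).

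Slc41a2, the magnesium carrier gene, read 7.15, 7.47 and 7.34 in virgin liver and 10.85, 11.01 and 11.03 in pregnant liver. In lung it read 6.42, 6.40 and 6.21 in virgin and 6.82, 6.47 and 6.49 in pregnant mice. The liver pools differed little within each state and were 3.39 apart at the nearest. In liver the states differed by 3.65 ± 0.12 (SE), or 12.5-fold, with 3.62 within pools 1 and 2 and 3.69 within pool 3.

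Some other magnesium transport genes were also higher in pregnant liver. Of 20 measured, 6 rose, 1 fell and 13 did not pass, with a list median of 0.05. Slc41a3, a carrier of the same family, rose from 6.62, 6.74 and 6.66 to 7.51, 7.48 and 7.54 (log2 change 0.84 ± 0.11, SE, n = 3, limma adjusted p = 0.000204), and its 2 other probe sets rose by 0.74 and 1.80. Its pregnant pools all lay above its virgin pools. Nipal1, a gene of the NIPA family of magnesium transporters, rose by 0.84 ± 0.17 (adjusted p = 0.00363), with 0.56 within pools 1 and 2 and 1.39 within pool 3. Cnnm2, whose product is needed for magnesium balance, rose by 0.76 ± 0.13 (adjusted p = 0.00174), though its other probe set changed by 0.20 and was not called.

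Trpm6, the magnesium channel gene of kidney and gut, went the other way. It fell by 0.50 on the log2 scale (SE 0.11, n = 3, limma adjusted p = 0.00639), from 6.17, 6.17 and 6.06 to 5.80, 5.54 and 5.55, and its other probe set changed by -0.24 without passing. The 3 further risers were Nipa1 (0.49, limma adjusted p = 0.0152), Mrs2 (0.48, 0.024), the magnesium channel of mitochondria, and Cnnm4 (0.37, 0.0429). Nipa1 gave 0.59 within pools 1 and 2 and 0.30 within pool 3, Mrs2 0.33 and 0.78, and Cnnm4 0.48 and 0.16. Slc41a1, the remaining family member, had a difference of 0.36 that did not pass (adjusted p = 0.179). In lung none of the 20 passed, at adjusted or at unadjusted p under 0.05 in limma.

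Dnajc12, the co-chaperone gene, had the least spread of the 7 in both liver groups. It read 8.998, 9.06 and 9.02 in virgin liver and 12.49, 12.58 and 12.61 in pregnant liver. In lung it read 8.51, 8.45 and 8.16 in virgin and 8.22, 8.15 and 8.23 in pregnant mice. Its probe set was thus above the median of the array in every group, and pregnant liver stood apart from the other 3. The liver difference was 3.53 ± 0.10 (SE), or 11.6-fold, with 3.51 within pools 1 and 2 and 3.58 within pool 3.

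Some genes for making tetrahydrobiopterin, the cofactor of the hydroxylases that Dnajc12 serves, were lower in pregnant liver. Of 11 measured hydroxylase and cofactor genes 0 rose, 3 fell and 8 did not pass, with a list median of -0.18. Gch1, the rate-limiting enzyme of cofactor synthesis, read 10.15, 10.39 and 9.80 in virgin and 9.19, 9.09 and 9.17 in pregnant liver (log2 change -0.97 ± 0.13, SE, n = 3, limma adjusted p = 0.000189), and its other probe set fell as well. Gchfr, which encodes the feedback regulator of that enzyme, read 10.74, 10.90 and 10.60 against 9.45, 9.53 and 9.92 (change -1.11 ± 0.14, adjusted p = 0.000102). For both the pregnant pools lay below all virgin pools.

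The 2 falls were larger within pools 1 and 2 (-1.13 for Gch1 and -1.33 for Gchfr) than within pool 3 (-0.63 and -0.67). Pts, the next enzyme of the route, changed by -0.38 ± 0.11 (SE, n = 3, limma adjusted p = 0.0384), but by -0.04 within pool 3, and its other probe set changed by 0.17. Its call was lost without virgin pool 1 or 2 or without pregnant pool 1 or 2 (adjusted p = 0.0618, 0.144, 0.123 and 0.137). Qdpr and Pcbd1, which regenerate the cofactor, had differences of -0.01 and -0.05 that did not pass.

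Some members of the co-chaperone family to which Dnajc12 belongs passed the test, in both directions. Of 29 measured DNAJC genes 1 rose, 2 fell and 26 did not pass, while 13.6% of all genes were called in liver. The list had a median of -0.05 and a range of -0.55 to 0.30. Hscb, the co-chaperone of iron-sulfur cluster assembly, changed by -0.55 ± 0.13 (SE, n = 3, limma adjusted p = 0.00993). The calls of Dnajc2 (0.30, limma adjusted p = 0.0499) and Dnajc8 (-0.29, adjusted p = 0.0253) were lost without single pools, while the differences stayed at 0.24 to 0.39 and at -0.32 to -0.26. Dnajc2 was called in 1 of the 6 fits that left out 1 liver pool (without virgin pool 1), with adjusted p of 0.0731 to 0.155 in the others, and 1 of its 3 other probe sets had the opposite sign. Dnajc8 was lost without virgin pool 2 or 3 or pregnant pool 1 (0.0623, 0.0781 and 0.0687).

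Crybb3, the lens crystallin gene, read 6.26, 6.41 and 6.74 in virgin liver and 10.14, 10.34 and 10.32 in pregnant liver. In lung it read 5.05, 5.11 and 4.96 in virgin and 4.96, 5.09 and 4.74 in pregnant mice. The order of the groups was pregnant liver, virgin liver and then the lung groups, which overlapped. Pregnant minus virgin liver was 3.80 ± 0.13 (SE), or 13.9-fold, with 3.91 within pools 1 and 2 and 3.59 within pool 3.

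Some other crystallin genes passed, in both directions, and none changed by as much as Crybb3. Of 20 measured, 1 rose, 2 fell and 17 did not pass, while 13.6% of all genes were called in liver. The list had a median of -0.01 and a highest difference of 0.80. The beta-crystallins closest to it, Crybb1 and Crybb2, named after their values were seen, had differences of 0.14 and -0.11 (limma adjusted p = 0.495 and 0.704). Crybg2, a crystallin-domain gene, rose by 0.80 ± 0.12 (SE, n = 3, adjusted p = 0.000531), from a virgin mean of 3.77, below 4.53. Cryl1 and Cryz, metabolic enzymes named after lens proteins of other mammals, fell by 0.74 and 0.41 on the log2 scale (adjusted p = 8.3e-05 and 0.00808).

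Markers of the eye lens were measured beside Crybb3. None of 9 measured passed the test in liver, where 4 of the 9 were above 4.53 in each state. Their summed signal on the linear scale was 207 to 235 in the virgin and 229 to 244 in the pregnant liver pools. The highest in pregnant liver were Crybb1, Cryaa and Crybb2, at 5.58, 5.51 and 5.40. The defining lens genes Mip and Lim2 stood at 3.84 and 4.07 in pregnant liver, below the median of the array, and Cryba1 stood at 4.00.

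Nptx1, the pentraxin gene, differed from the genes above in that its lung values overlapped those of pregnant liver. Its probe set 1434877_at read 3.30, 3.29 and 3.10 in virgin liver, below 4.53, and 7.05, 7.002 and 7.26 in pregnant liver. In lung it read 7.29, 7.35 and 7.13 in virgin and 7.53, 7.44 and 7.21 in pregnant mice. Virgin liver alone was low, and the pregnant liver pools overlapped the lung pools. The liver difference was 3.87 ± 0.11 (SE), or 14.6-fold over a virgin level that may be background, with 3.73 within pools 1 and 2 and 4.16 within pool 3.

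The other probe set of Nptx1, 1422130_at, read 4.89, 4.63 and 4.86 in virgin and 5.79, 5.82 and 6.04 in pregnant liver. Its difference of 1.09 had the same sign, and the pools did not overlap, but it was 2.78 log2 units smaller than at the first probe set. Of 9 measured pentraxin and AMPA receptor genes 1 rose and 8 did not pass, with a median of 0.10. The riser was Crp, which encodes the liver pentraxin C-reactive protein, from 11.78, 11.80 and 11.87 to 12.26, 12.22 and 12.29 (change 0.44 ± 0.09, SE, n = 3, limma adjusted p = 0.00685). Nptx2, a close relative named after its values were seen, had a mean of 3.25 in virgin liver and a difference of 0.04 that did not pass.

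Neuronal markers, listed because Nptx1 and Cacna1h are best known in neurons, were not called. None of 14 measured rose or fell in liver, and their median difference was -0.01. In pregnant liver 6 of the 14 were above 4.53 and in virgin liver 5. Rbfox3 and Syn1, defining neuronal genes, stood at 6.16 and 5.62 in pregnant liver, and Snap25 and Uchl1 at 2.35 and 3.10. The summed linear signal of the list was 549 to 592 in virgin and 646 to 707 in pregnant liver. Syt1, a gene of synaptic vesicles, stood at 8.23 and 8.65 (limma adjusted p = 0.232). The part of these cells in the results was not tested.

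Ripor2, the cell shape gene, had 4 probe sets that disagreed. The brightest over the 12 arrays, 1460555_at, read 3.72, 4.04 and 3.57 in virgin liver and 7.28, 7.56 and 7.62 in pregnant liver. In lung it read 6.22, 6.23 and 6.26 in virgin and 6.23, 6.72 and 6.37 in pregnant mice. Lung thus stood between the liver states, and virgin liver was below 4.53. Between the liver groups the difference was 3.71 ± 0.14 (SE), or 13.1-fold over a level that may be background, with 3.54 within pools 1 and 2 and 4.05 within pool 3.

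At 1434359_at the virgin liver pools read 4.19, 5.08 and 4.19 and the pregnant pools 6.07, 6.43 and 6.08, a difference of 1.71. At 1453837_at the difference was 0.38, from 5.04, 5.38 and 5.41 to 5.66, 5.52 and 5.79. At 1458202_at all 12 values lay below 4.53, the liver groups overlapped and the difference was -0.15. The rise was therefore seen at some probe sets of Ripor2 and was near 0 at 1 of them. The gene has 3 starts in the promoter table, and which transcript each probe set reads was not examined here.

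Leukocyte markers were measured because white blood cells express Ripor2. None of 12 measured passed in liver, their median difference was -0.16, and their summed linear signal was 1443 to 1660 in virgin and 1185 to 1556 in pregnant liver. The part of these cells in the results was not tested.

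Ndrg1 had the smallest rise of the 7 and the largest number of probe sets. Its brightest, 1456174_x_at, read 6.43, 6.71 and 6.85 in virgin liver and 8.89, 9.55 and 9.52 in pregnant liver. In lung it read 7.84, 7.92 and 7.70 in virgin and 8.04, 8.46 and 8.29 in pregnant mice. Virgin liver was the lowest group, pregnant liver the highest, and lung lay between. The liver difference was 2.66 ± 0.17 (SE), or 6.31-fold, with 2.65 within pools 1 and 2 and 2.67 within pool 3.

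The suffix of that probe set marks probes that can also match other transcripts, so probe sets without it were compared. At 1450976_at the virgin pools read 5.29, 5.38 and 5.43 and the pregnant pools 6.87, 7.23 and 7.92, a difference of 1.97. At 1423413_at the virgin pools read 4.30, 4.51 and 3.50 and the pregnant pools 6.38, 6.42 and 6.43, a difference of 2.31. These plain probe sets thus rose too, by 1.72 and 1.99 within pools 1 and 2 and by 2.49 and 2.93 within pool 3. The suffixed 1420760_s_at had a difference of 2.46, and 1450977_s_at had one of 0.46, from 5.64, 5.57 and 5.85 to 6.01, 6.25 and 6.18.

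In the family of Ndrg1, 2 of 3 other genes fell and 1 did not pass. Ndrg2, abundant in liver and known as a brake on growth, fell from 11.46, 11.47 and 11.29 to 10.80, 10.84 and 10.67 (log2 change -0.64 ± 0.11, SE, n = 3, limma adjusted p = 0.00129). Ndrg3 changed by -0.45 ± 0.12 (adjusted p = 0.0259), with -0.24 within pools 1 and 2 and -0.85 within pool 3. Without virgin pool 2 or 3 or pregnant pool 1 or 3 its adjusted p was 0.0531, 0.0998, 0.0674 and 0.0845. Ndrg4 had a difference of -0.30 that did not pass.

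Genes induced by low oxygen, as Ndrg1 is, passed in both directions. Of 28 measured, 4 rose, 5 fell and 19 did not pass, with a median of -0.19. Tfrc, the transferrin receptor gene, which also serves red cell precursors, rose by 1.51 ± 0.18 (SE, n = 3, limma adjusted p = 7.08e-05). Its 2 other probe sets rose less, by 0.49 and 0.51, and 1 of them was called. Ddit4, an inhibitor of mTOR signalling, rose by 0.77 ± 0.15 (adjusted p = 0.00355), with 0.59 within pools 1 and 2 and 1.14 within pool 3. Ak4, a mitochondrial adenylate kinase gene, and Pdk1, a kinase that shuts down pyruvate dehydrogenase, fell by 1.43 and 0.80 on the log2 scale (adjusted p = 0.00021 and 0.000169). Each had 2 further probe sets called in the same direction and 1 of the opposite sign that was not called. Among further well-known targets, named after their values were seen, Ldha, the lactate dehydrogenase gene, rose by 0.63 (adjusted p = 0.000262) and Bnip3, a mitophagy receptor gene, fell by 0.31 on the log2 scale (adjusted p = 0.0405). Vegfa, Slc2a1, Car9 and Egln3 had differences of -0.23, -0.07, -0.04 and -0.19 that did not pass.

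Erythroid markers, a list that includes Tfrc, passed in both directions. Of 7 measured, Tfrc and Alas2, the haem synthesis gene of red cells, rose, Epb42 fell and 4 did not pass. The median difference of the list was -0.04. Its summed linear signal was 585 to 655 in virgin and 1047 to 1405 in pregnant liver. Such a sum follows the brightest genes, which in pregnant liver were Tfrc (mean 9.32) and Alas2 (8.46). The part of these cells in the results was not tested.

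**Figure D2:**
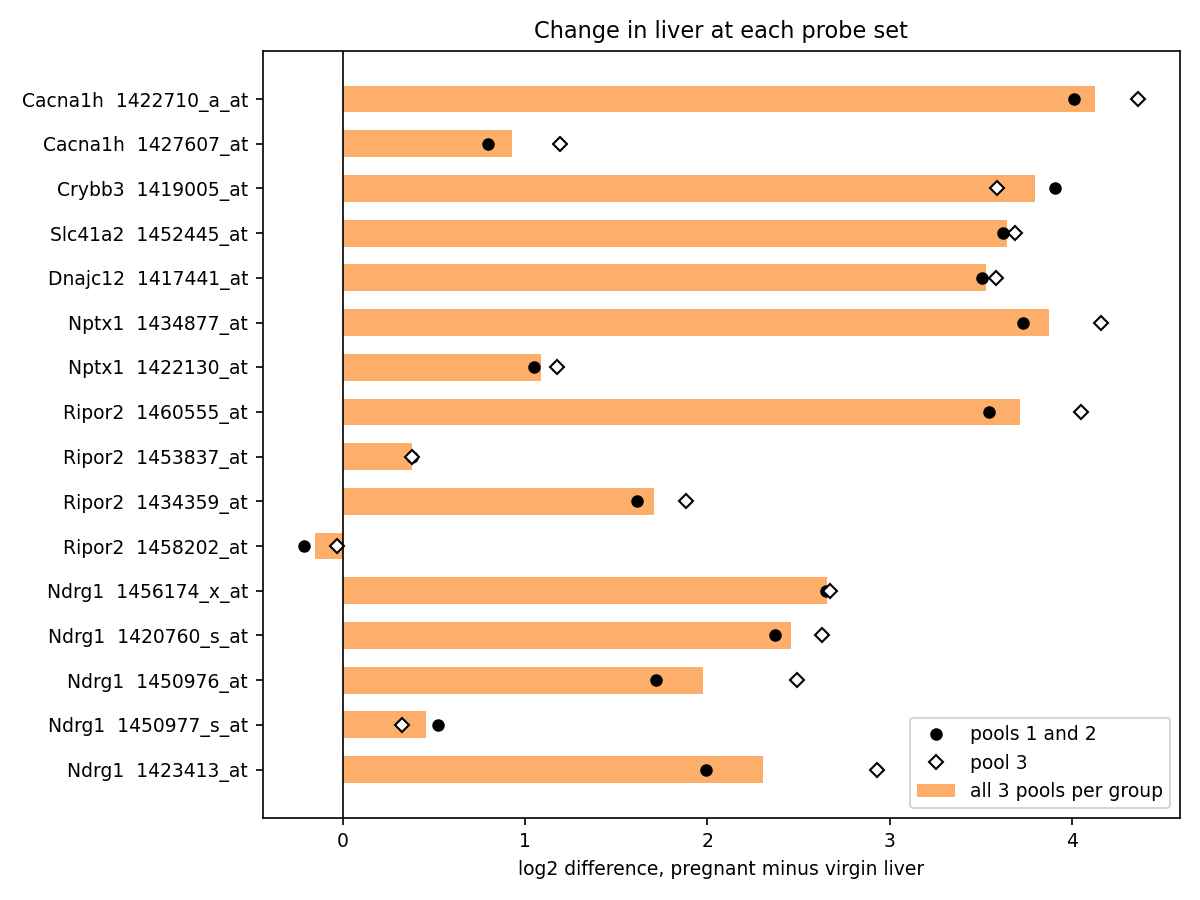
Log2 difference between pregnant and virgin liver (horizontal axis) at each of the 16 probe sets. Bars use all 3 pools per group, filled circles pools 1 and 2, and open diamonds pool 3; probe sets of Ripor2 run from -0.15 to 3.71.

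The plot of liver differences by probe set shows that pool 3, without spike-in signal, gave differences on the same side of 0 as pools 1 and 2 at every probe set. Among the 12 with a difference of at least 1 the ratio of the pool 3 difference to that of pools 1 and 2 was 0.918 to 1.47. At 1450977_s_at of Ndrg1 the values were 0.52 within pools 1 and 2 and 0.32 within pool 3, and at 1458202_at of Ripor2 they were -0.21 and -0.03.

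**Figure D3:**
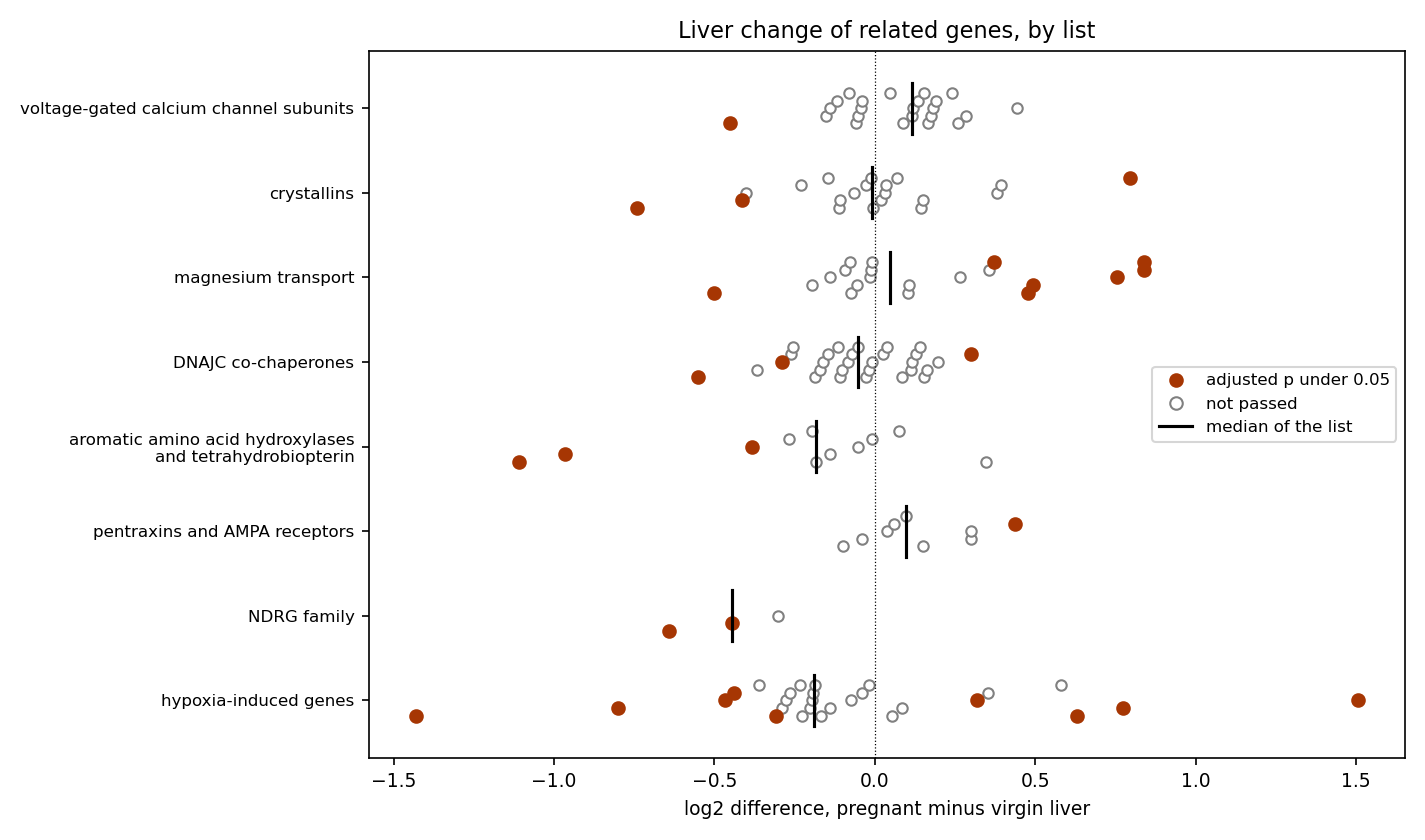
Log2 difference between pregnant and virgin liver (horizontal axis) of 143 genes related to the members, in 8 lists, members left out. Filled points passed the test at an adjusted p under 0.05, open points did not, and black lines are list medians; magnesium transport has 6 risers and the NDRG family lies left of 0.

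Over the 9 lists together 31 of 162 genes were called in liver, 13 higher and 18 lower, which is 19.1% against 13.6% of all genes. List medians ran from -0.45 to 0.12. The highest difference at the probe set taken for each gene was 1.51, against 2.66 to 4.13 for the 7 genes themselves. Another probe set of Slc41a3 rose by 1.80. The lists were put together with earlier results of these data known.

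The lung asks whether the same genes responded to pregnancy in another organ, and its arrays had no part in their choice. None of the 16 probe sets passed (limma, adjusted over all 45037 probe sets, lowest adjusted p = 0.486), 1 had an unadjusted p under 0.05, and 0.213% of all probe sets were called. No difference reached 1, as 0.0622% of all probe sets did. The differences ran from -0.17 to 0.45 with a median of 0.11, and 12 of 16 were above 0. Their 95% intervals lay between -0.50 and 0.85, so a lung change as large as the liver change of the brightest probe set of each gene was outside them. In simulated data of this design 32.5% of changes of 0.5 were recovered, so small changes could not be called reliably with 3 pools.

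Ndrg1 had the largest lung difference, at 1456174_x_at, from 7.84, 7.92 and 7.70 to 8.04, 8.46 and 8.29. It was 0.45 ± 0.17 (SE, n = 3, 95% interval 0.08 to 0.81, limma unadjusted p = 0.0195 and adjusted p = 0.486). The pregnant lung pools lay above all virgin pools there, at 1420760_s_at of Ndrg1 (0.25, adjusted p = 0.908) and at Slc41a2 (0.25 ± 0.12, adjusted p = 0.706). That is 3 of 16, while 7.24% of all probe sets had pregnant lung above virgin lung in this way and 15.6% did not overlap in either direction.

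**Figure D4:**
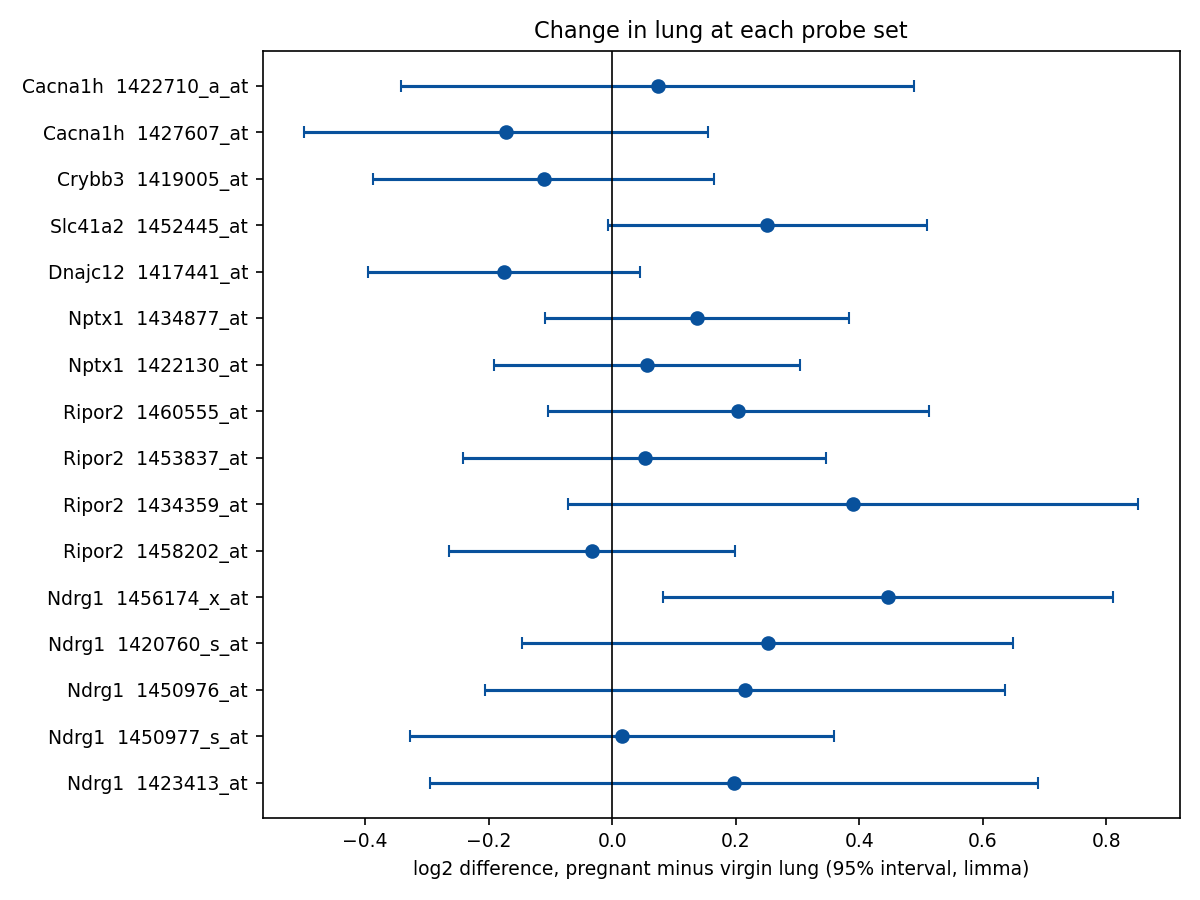
Log2 difference between pregnant and virgin lung (horizontal axis) at each of the 16 probe sets, with 95% intervals from limma. Only the interval of 1456174_x_at of Ndrg1 lies clear of 0, before adjustment.

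Among the related genes 2 of 162 were called in lung (1.23%, against 0.594% of all genes, 0.258% as higher and 0.335% as lower). Adm, the gene of adrenomedullin, a peptide that widens blood vessels, rose by 1.09 ± 0.19 (SE, n = 3, limma adjusted p = 0.0263) and Cryz fell by 0.56 on the log2 scale (SE 0.09, adjusted p = 0.0184). Adm was lost without virgin pool 2 or 3 or pregnant pool 1 or 3 (adjusted p = 0.092, 0.0887, 0.102 and 0.0573). Cryz was lost without virgin pool 2 or pregnant pool 1 or 2 (0.102, 0.0605 and 0.068). By a limma test of the lung change against the liver change, 6.71% of all genes differed between the tissues.

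Virgin tissues were set side by side within each probe set. Virgin lung was above virgin liver for Nptx1 by 4.02, for Ripor2 by 2.46 and for Ndrg1 by 1.15 (log2). It was below virgin liver for Crybb3 by a difference of -1.43, for Slc41a2 by -0.98, and for Dnajc12 by -0.65. Pregnant liver lay above all 6 lung pools for 6 of the 7 genes, Nptx1 being the exception. Cacna1h was below 4.53 in both virgin tissues and has no order there, and the differences of Nptx1 and Ripor2 are over virgin liver levels that may be background. These are descriptions, since the liver values chose the genes.

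Profiles over the 12 arrays, each centred on its own mean, were compared by their root mean square difference per array in log2 units. The profiles include the liver rise by which the set was chosen, which favours nearness among its genes. Nearness between chosen genes is therefore given as a description and carries no further weight. Slc41a2 and Dnajc12 were nearest to each other of all genes, at 0.20. Cacna1h was nearest to Dnajc12 (0.36), Slc16a6 (0.37) and Slc41a2 (0.39), and Crybb3 to Slc41a2 (0.41), Tff3 (0.45) and Dnajc12 (0.47). Slc16a6, a gene of the monocarboxylate transporter family, was also the next neighbour of Slc41a2 (0.36), and Tmem64 was near Dnajc12 (0.37).

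For Nptx1, Ripor2 and Ndrg1, which were higher in virgin lung than in virgin liver, the neighbours were mostly others. Nptx1 was nearest to Crip1 (0.42), Slc24a3 (0.54), a sodium and calcium exchanger gene, and Cyria (0.67). Ripor2 was nearest to Slc37a1 (0.48), Ndrg1 (0.53) and Plk2 (0.61), and Ndrg1 to Zdhhc14 (0.38), Rogdi (0.41) and Rasgrp2 (0.43). Crip1, for example, read 8.21 in virgin liver, 11.04 in pregnant liver, 11.97 in virgin lung and 12.03 in pregnant lung on average, the same order of groups as Nptx1 except that its pregnant liver was clearly under lung. All profiles share the same 12 arrays and their normalization, and likeness says nothing of function. The nearness of Ripor2 and Ndrg1 was likewise favoured by their choice.

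Markers of further cells that a piece of liver could hold were also measured. Of 15 pancreatic acinar genes 4 rose (Pnliprp1, Cela3b, Clps and Cpa1), 2 fell (Cela1 and Cela2a) and 9 did not pass. Their summed linear signal was 1370 to 1656 in virgin and 1268 to 1581 in pregnant liver. In pregnant liver 10 of the 15 were above 4.53 and in virgin liver 7, with Cela1 at 8.82, Cela3b at 8.67 and Pnliprp1 at 7.90 in pregnant liver. The digestive enzyme genes Cpb1, Cel and Ctrc stood below 4.53 in both. Of 8 adrenal cortex markers, listed because that tissue expresses Cacna1h, none passed and 4 were above 4.53 in each state, with a summed signal of 290 to 348 in virgin and 259 to 325 in pregnant liver. Of 8 islet markers Iapp fell. Of 9 decidual and placental, 6 bile duct and 9 muscle markers none passed in liver, and 0, 5 and 5 of them were above 4.53 in each state. The part of these cells in the results was not tested.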

How the data were processed

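Expression was read on 12 Affymetrix arrays of 1 colour, 3 pools in each of 4 groups. Per the submitters' processing notes the authors made the deposited log2 values with RMA (background correction, normalization between arrays and summary per probe set) and the affy package; versions and the arrays normalized together are not given in the sources used here. Of the probe sets, 64 controls were left out, and 34945 of 45037 others had 1 platform symbol, 932 several and 9160 none. The 16 probe sets of the 7 genes were tested in lung with limma 3.58.1 in R 4.3.3, as 4 group means over all 12 arrays and 45037 probe sets, with Benjamini-Hochberg adjustment. Related genes were tested with the probe set of the highest mean for each of 18193 genes. Lists held 311 entries, 279 of them measured; 1 list of related genes is counted in the totals and not reported on its own here. Liver changes of the 7 genes were not tested.

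RMA shrinks differences at low levels, so folds of dim genes are understated. In lung data simulated on 45037 probe sets the fit recovered 32.5% of log2 changes of 0.5, 91.2% of 1 and 100% of 2. The genes, lists and tests were chosen with earlier results of these data known. Genes were named by a written rule: all 7 genes, up to 4 called genes per list in liver and 2 in lung by size of change (or 2 by p where none was called), 3 neighbours per gene, the 5 largest other rises and those next to the smallest member rise, and the highest or called markers. The text leaves out some genes that this rule selected, among them the highest markers of some lists and several genes taken by p in lung. One of the latter was Ddc, with a lung difference of -0.66 that did not pass (limma adjusted p = 0.131). Genes named outside the rule are said to be so, except further called members of the magnesium list, Slc41a1, Pcbd1 and the defining markers given as low, also named after their values were seen. Alternatives changed the arrays in the fit, the filter on dim probe sets, the normalization, the moderation of variances, blocks, the probe sets kept and the threshold. The labels do not say how pools relate to litters.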

Additional observations from a re-analysis of the deposited data

Results flagged for a closer look

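Among the 34 related genes that the naming rule selected, 15 changed differently with pregnancy in lung and in liver by a test of the difference itself (limma interaction of tissue and pregnancy, adjusted over 18193 genes). Of all genes 6.71% were called by this test. Values are the lung change minus the liver change on the log2 scale. Those higher in liver relative to lung were Tfrc (-1.76, adjusted p = 0.000789), Nipal1 (-1.12, 0.0102), Slc41a3 (-0.80, 0.00825), Cnnm2 (-0.77, 0.0269), Crybg2 (-0.68, 0.0301) and Crp (-0.62, 0.0118). Those lower in liver relative to lung were Adm (1.38, 0.00754), Gch1 (1.15, 0.00179), Gchfr (0.97, 0.00804), Ndrg2 (0.80, 0.00637), Pdk1 (0.68, 0.0138), Rnd1 (0.67, 0.0408), Trpm6 (0.66, 0.0186), Dlc1 (0.62, 0.0277) and Cryl1 (0.51, 0.0286). For Adm the lung change was the larger part (1.09 in lung and -0.29 in liver), and for Cryl1 both changes were below 0 (-0.23 and -0.74). These genes were selected partly by their change in liver or lung, which favours such a difference. The same test was not made for the 7 genes, whose liver change was the reason for their choice.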

How the results depend on the processing

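The count of 0 member probe sets called in lung was found under every alternative run, including the replicate block, a stricter threshold of 0.01 and each left-out lung pool. At an unadjusted p under 0.05 in limma the lung count was 1 as reported. It was 3 with only the lung arrays or with array weights, and 2 with quantile normalization or a variance trend. The median liver difference of 2.38 was 2.14 without suffixed probe sets, 2.18 without both liver pools 3 and 2.65 in these pools alone. It stayed at 2.38 with a replicate block, and with a block for the arrays without poly-A spike-in signal. Without single pools it was 2.27 to 2.50. With 1 probe set per gene, which drops the weaker probe sets, it was 3.71. The 31 related genes called in liver were 21 with the replicate block, 22 to 28 without single pools and 19 at a threshold of 0.01. In lung the count of called related genes, 2 as reported (Adm and Cryz), was 1 with only the lung arrays, 1 without suffixed probe sets, 0 at 0.01, 2 with the replicate block and 0 to 2 without single pools. These were not always the same genes: Cryz did not pass with the replicate block (adjusted p = 0.0749), nor did Cryz (0.0562) or Adm (0.0636) with only the lung arrays. Lung differences near 0 changed sign: 1450977_s_at of Ndrg1 (0.015) was -0.0053 with array weights and -0.186 to 0.117 without single pools, 1453837_at of Ripor2 (0.053) was -0.066 to 0.156, 1458202_at of Ripor2 (-0.033) was -0.098 to 0.032, and 1422130_at of Nptx1 (0.056) was -0.031 to 0.117 without single pools. The cause of these shifts was not tested. Over all genes the 2482 liver calls were 1557 with only the liver arrays and 1346 with the replicate block, and the 108 lung calls were 207 with a variance trend, 313 with array weights, 26 without virgin pool 2, 36 without virgin pool 3 and 50 without pregnant pool 1 or 2. Pool numbers were not treated as pairs in the main fit. Deviations of same-numbered pools correlated by -0.0143, 0.0106 and 0.0725 in lung and by 0.0959, -0.0832 and 0.114 in liver. Those of differently numbered pools correlated by -0.0624 to 0.0531 in lung and by -0.183 to 0.105 in liver. With 3 pools per group such values cannot settle whether the numbers pair the samples. Signal over background limits Cacna1h, Nptx1 and Ripor2 in virgin liver.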
